A study of Mus musculus with 16 samples.

Results

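The T cell receptor variable genes are the V segments of the alpha, beta, gamma and delta chains of the T cell receptor. All genes typed TR_V_gene in the GENCODE vM21 annotation of the mouse genome (build mm10, GRCm38) were taken, which gave 144 of 55413 genes on chromosomes 1 to 19, X and Y. The alpha and delta segments share 1 locus on chromosome 14 (115 members, named Trav, Trdv or, for C920008G01Rik and B230359F08Rik, by clone). The beta segments lie on chromosome 6 (22 members, Trbv), and the gamma segments on chromosome 13 (7 members, 6 of them named Tcrg-V with a number and the other Trgv2). Methylation was read by whole-genome bisulphite sequencing in 16 libraries of spleen cells from C57BL/6J mice of 6 to 8 weeks. The B cell group was 8 libraries of CD43- resting B cells, and the T cell group 8 libraries of naive CD4+ CD62L+ T cells. All cells were purified by magnetic sorting, mice were pooled, and the labels name no engineered allele or treatment for either group. Each cell type had 4 male and 4 female libraries, and within each sex 2 were made by bisulphite (BS) and 2 by oxidative bisulphite (oxBS) conversion.

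A V segment encodes most of the part of the receptor that meets the antigen. While T cells mature in the thymus, the RAG recombinase joins 1 V segment to a D or J segment at recombination signals that flank the segments, and the DNA between them is cut out or inverted. The delta segments lie inside the alpha locus, so that joining of an alpha V to an alpha J removes the delta genes from that chromosome. B cells carry out the same kind of joining at the immunoglobulin loci and keep the T cell receptor loci unjoined. V segment promoters lie just upstream of a short leader exon.

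The libraries held between 123346598 and 170653234 CpG calls, or 5.64 to 7.80 calls per CpG, and at least 92.4% of CpGs had a call in each. BS reads both 5-methylcytosine and 5-hydroxymethylcytosine as methylated and oxBS reads 5-methylcytosine alone. DNA samples were divided before oxidation, so a BS and an oxBS library can come from 1 sample. Which libraries share a sample is not given in the sources used here, so p-values measure the spread between libraries and may be too small. Counts from BS and from oxBS libraries alone are therefore given beside each main count. The T cell marker genes (Cd3e, Cd4, Lck and others, 10 fixed genes) were all called higher in methylation in B cells over the gene. Upstream, 5 of 9 T cell markers measured were called, also with B cells higher. Of the B cell markers, 2 of 8 were called over the gene and 3 of 7 upstream, all with T cells higher. None of the 7 myeloid, erythroid and NK cell markers was called over the gene.

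In these bulk libraries, a lower level in all cells and cells in different states cannot be told apart. Levels were pooled over all CpGs of a gene, and over the 500 bp upstream of its start. The level of a window is the share of calls that were methylated. Levels by library are given for libraries with at least 10 calls. Differences are of calls pooled over all libraries of a cell type, so they can depart from differences of means. A member was measured where at least 5 libraries of each cell type had 10 or more calls in a window with at least 2 CpGs. It was called where a quasi-binomial model with sex and assay as covariates gave a Benjamini-Hochberg adjusted p under 0.05 over all genes and the pooled levels differed by at least 20 points. Of the 144 members, 95 were measured over the gene and 42 upstream. Of the 49 not measured over the gene, 33 had no call in any library. With the exception of Trav6-6, these were duplicated Trav copies, whose symbols carry a d or n after the family number. Of 63 such copies, with the clone C920008G01Rik counted among them, 39 were not measured. In the unmeasured members a median of 100% of 31-base words occurred in another V segment, against 36.8% in the measured members. The other 16 had some calls but fell short of the limits, among them Trdv1, Trdv2-1, Trdv4, Trbv3 and Trbv26.

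Stretches of sequence from members with large differences are given first, on the strand of the gene, with each CpG in capitals. An upstream stretch is 300 bases of the 500-bp window, and CpGs outside it also count in the level of the window. The upstream stretches belong to Trav1, Tcrg-V1, Trbv23 and Trav21-dv12, which were among the measured members with the largest upstream difference. Trbv31 and Trav16n are shown for their low level in T cells, over the last bases of the gene, and Trav9d-1 for the opposite direction.
Trav1, chr14:52427428-52427727, plus strand, 500 to 201 bases before the start: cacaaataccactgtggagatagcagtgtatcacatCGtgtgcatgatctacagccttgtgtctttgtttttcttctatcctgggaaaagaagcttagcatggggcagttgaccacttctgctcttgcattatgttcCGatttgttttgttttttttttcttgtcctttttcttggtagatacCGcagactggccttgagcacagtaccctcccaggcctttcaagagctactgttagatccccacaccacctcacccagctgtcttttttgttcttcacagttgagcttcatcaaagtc
Tcrg-V1, chr13:19339689-19339988, plus strand, the 300 bases before the start: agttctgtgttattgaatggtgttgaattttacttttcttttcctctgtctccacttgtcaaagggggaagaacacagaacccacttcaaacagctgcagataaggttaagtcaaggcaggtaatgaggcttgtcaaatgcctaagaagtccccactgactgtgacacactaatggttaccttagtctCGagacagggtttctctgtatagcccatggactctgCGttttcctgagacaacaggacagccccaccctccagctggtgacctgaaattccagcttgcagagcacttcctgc
Trbv23, chr6:41215773-41216072, plus strand, the 300 bases before the start: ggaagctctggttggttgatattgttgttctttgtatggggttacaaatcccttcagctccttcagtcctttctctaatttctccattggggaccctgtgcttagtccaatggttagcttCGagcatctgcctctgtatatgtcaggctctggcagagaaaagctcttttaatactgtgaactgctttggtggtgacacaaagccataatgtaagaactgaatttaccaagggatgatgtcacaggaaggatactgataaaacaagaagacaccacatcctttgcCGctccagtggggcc
Trav21-dv12, chr14:53875684-53875983, plus strand, the 300 bases before the start: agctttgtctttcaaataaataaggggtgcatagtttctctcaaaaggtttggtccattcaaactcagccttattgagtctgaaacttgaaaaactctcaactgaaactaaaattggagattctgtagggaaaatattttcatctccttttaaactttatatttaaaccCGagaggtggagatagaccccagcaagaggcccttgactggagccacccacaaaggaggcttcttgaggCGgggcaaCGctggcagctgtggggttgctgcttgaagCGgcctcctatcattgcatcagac
Trbv31, chr6:41557691-41557990, minus strand, the last bases of the gene: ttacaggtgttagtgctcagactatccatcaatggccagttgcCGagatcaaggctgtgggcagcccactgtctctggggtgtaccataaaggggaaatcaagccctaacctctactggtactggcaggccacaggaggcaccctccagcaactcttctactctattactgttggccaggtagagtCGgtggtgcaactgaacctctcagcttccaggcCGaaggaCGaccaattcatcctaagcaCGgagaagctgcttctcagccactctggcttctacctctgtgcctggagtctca
Trav16n, chr14:53351322-53351621, plus strand, the last bases of the gene: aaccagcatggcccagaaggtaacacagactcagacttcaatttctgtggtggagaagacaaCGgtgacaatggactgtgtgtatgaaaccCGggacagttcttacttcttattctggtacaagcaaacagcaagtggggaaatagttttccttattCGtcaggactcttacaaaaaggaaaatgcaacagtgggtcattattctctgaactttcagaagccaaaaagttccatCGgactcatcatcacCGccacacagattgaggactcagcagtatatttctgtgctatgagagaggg
Trav9d-1, chr14:52792478-52792777, plus strand, the last bases of the gene: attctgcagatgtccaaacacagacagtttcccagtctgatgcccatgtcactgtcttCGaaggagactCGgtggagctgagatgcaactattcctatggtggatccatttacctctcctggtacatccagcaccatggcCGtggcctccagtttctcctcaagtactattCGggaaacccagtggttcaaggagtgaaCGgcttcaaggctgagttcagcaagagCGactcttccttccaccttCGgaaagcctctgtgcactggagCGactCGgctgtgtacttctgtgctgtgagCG

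In the Trav1 stretch, the CpG at base 37 was methylated at 93.8% in B cells (65 calls) and 31.7% in T cells (60 calls). The CpG at base 184 of it was at 89.7% in B cells and had 0 of 51 methylated calls in T cells, which allows a level of up to 5.88%. In the Tcrg-V1 stretch, the CpG at base 189 was methylated at 77.6% among B cell calls and 1.18% among T cell calls. The Trbv23 stretch held 2 CpGs that differed from each other. That at base 121 was at 62.7% in B cells and 0 of 27 calls in T cells, while that at base 286, 15 bases before the start, was at 1.75% in B cells. All 5 CpGs of the Trbv31 stretch had no methylated call in T cells, and in B cells they ranged from 28.8% at base 247 to 90.9% at base 220. In Trav9d-1, 2 CpGs at bases 59 and 70 were at 100% in B cells, and the 8 CpGs from base 141 on were at 22.6% to 50% in B cells and 84.0% to 97.9% in T cells. Levels of single CpGs, and all limits here and below, cover counting error only. The limits treat calls as independent, although calls of 1 read are not.

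The first comparison asked whether V segments differed in methylation between B and T cells. Over the gene, 43 of the 95 measured members were called, 41 with the higher level in B cells and 2 with the higher level in T cells. Of all 46935 genes tested, 1.35% were called, 0.989% with B cells higher and 0.358% with T cells higher. The median level over measured members was 84.0% in B cells and 61.7% in T cells, and the median difference (B minus T) was 18.7 points against 0.69 points over all genes. In all, B cells had the higher level at 87 measured members and T cells at 8. The libraries of the cell types did not overlap at 39 members with B cells higher and at 1 with T cells higher, where 4.36% and 1.47% of all genes had such separation. BS libraries alone called 16 of 89 members and oxBS libraries alone 39 of 87. Over all genes, BS libraries alone called 326 and oxBS libraries alone 731, where all 16 libraries called 632.

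The largest difference of the measured members was at Trav16n (chr14:53351028-53351621). Its level in B cells had a lowest, median and highest value of 59.1%, 73.2% and 79.2% (n = 7), and in T cells of 0%, 0% and 3.7% (n = 7). The groups did not overlap, and the pooled levels differed by 72.4 points (quasi-binomial F test, adjusted p = 8.58e-07). The related Trav16d-dv11 (chr14:53047287-53047821) was at 73.7% ± 7.05 (SD, n = 7) among B cell and 5.73% ± 4.74 (n = 8) among T cell libraries, a difference of 67.5 points (adjusted p = 1.54e-06). Trav15-2-dv6-2, an alpha segment that can also join in the delta chain, had a median of 85.7% among B cell libraries (54.5% to 100%, n = 7) and of 10% among T cell libraries (7.14% to 20%, n = 5). Its difference was 71.9 points (adjusted p = 3.49e-05), with no overlap between libraries. Trav13-1 (chr14:53545014-53545525) was at 67.7% ± 4.04 in B cells and 9.49% ± 4.77 in T cells (n = 8 each), 57.7 points apart (adjusted p = 2.89e-07). Trav14n-3 was at 95.6% ± 6.45 in B cells and 38.3% ± 11.9 in T cells (n = 8 each), 57.5 points apart (adjusted p = 0.00016).

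In the beta locus, Trbv12-2 was at 74.4% ± 12.2 in B cells (n = 7) and 8.45% ± 7.75 in T cells (n = 6), with 2 CpGs and a difference of 63.8 points (adjusted p = 0.000135). Trbv16 (chr6:41151740-41152230) had values of 58.2%, 65.7% and 72.8% among B cell and 0%, 2.19% and 12.8% among T cell libraries as lowest, median and highest of 8 libraries each. All B cell libraries were above all T cell libraries, and the difference was 62.5 points (adjusted p = 1.62e-06). Trbv31 (chr6:41557691-41558452, minus strand) lies on the far side of the beta constant genes, in the opposite orientation to the rest of the locus. Its level in B cells was 46.8%, 61.2% and 64.1% as lowest, median and highest of 8 libraries. In T cells 0 of 410 calls were methylated, which allows a level of up to 0.732%. The difference was 57.3 points (adjusted p = 1.09e-07). At the other end of the locus, Trbv1 was at 14.1% ± 5.40 in B cells and 5.21% ± 2.40 in T cells (n = 8 each), a low level in both cell types. Trbv23 was also low over the gene in both, at 10.5% ± 5.58 (n = 8) and 0.952% ± 2.13 (n = 5), with no call. Trbv30 was high in both, at 90% ± 3.18 and 89.1% ± 5.40 (n = 8 each), and its difference of 0.245 points was the smallest of the measured members of the locus.

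**Figure D1:**
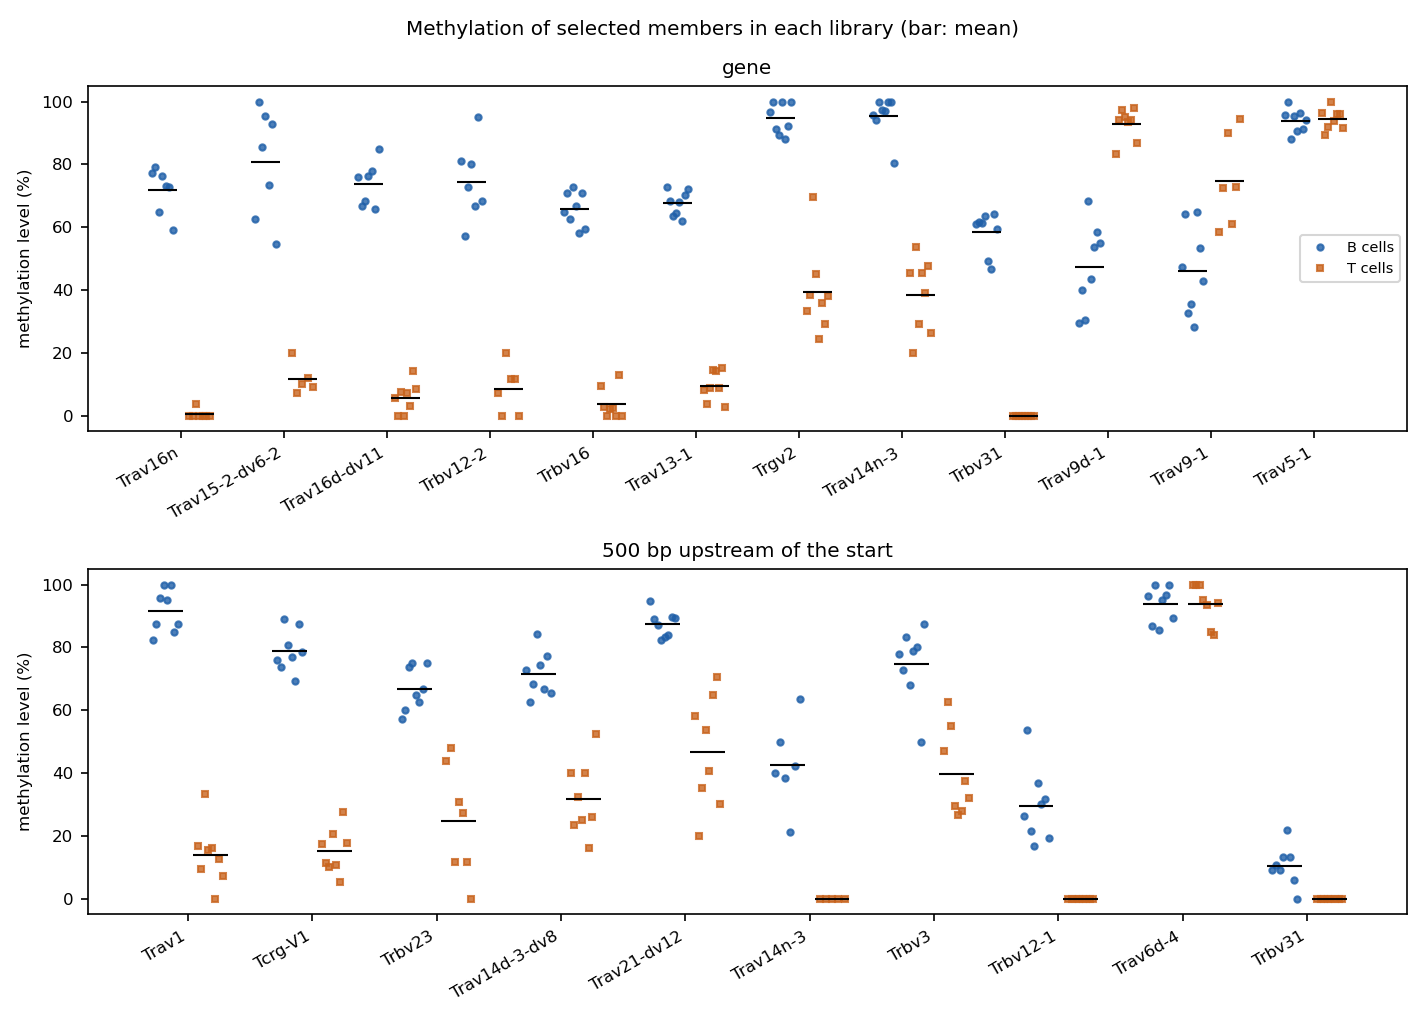
Methylation level (vertical axis, %) of selected members in each library, over the gene (top) and the 500 bp upstream of the start (bottom). Blue circles are B cell libraries, orange squares T cell libraries with at least 10 calls, and black bars their means. At Trbv31 over the gene the T cell libraries are all at 0% and the B cell libraries between 46.8% and 64.1%, whereas the means of Trav9d-1 and Trav9-1 lie higher in T cells.

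The gamma segments varied widely among themselves. Tcrg-V4 was at 82.5% ± 7.26 in B cells and 36.3% ± 9.5 in T cells (n = 8 each), 46.9 points apart (adjusted p = 2.63e-05). Tcrg-V6 was at 65.0% ± 8.39 (n = 8) and 26.1% ± 14.1 (n = 7), 41.8 points apart (adjusted p = 0.00155). Trgv2, on the minus strand, was at 94.7% ± 5.04 and 39.2% ± 13.8 (n = 8 each), 57.5 points apart (adjusted p = 2.44e-05). In Trgv2 the T cell libraries ran from 24.4% to 69.6%, below the lowest B cell library at 88.0%. The other 4 gamma members were not called. Their differences were 12.3 points at Tcrg-V7, 0.309 at Tcrg-V5, 3.13 at Tcrg-V3 and 15.8 at Tcrg-V1.

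Of the delta segments, Trdv2-2 was low in B cells, at 21.3% ± 3.98, and had no methylated call among 230 in T cells (n = 8 each), which allows up to 1.3%. Its difference of 21.1 points passed (adjusted p = 2.64e-05). Trdv5 lies on the minus strand (chr14:54148662-54149294) and overlaps the end of the delta constant gene Trdc (chr14:54142851-54148868), so that CpGs of both can be shared. It was at 96.5% ± 1.61 in B cells and 76.7% ± 14.6 in T cells (n = 8 each), 18.6 points apart and so under the limit of the call (adjusted p = 0.000508). Without T cell library 13 the difference was 21.0 points and was called (adjusted p = 0.000137). For Trdv1, Trdv2-1 and Trdv4 only 4, 3 and 1 T cell libraries reached 10 calls, too few for a test. Their pooled levels were 68.6% against 73.1%, 93.2% against 80.3% and 93.1% against 81.4% in B against T cells.

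The 2 members called higher in T cells were Trav9d-1 and Trav9-1, named here after their values were seen. In BS libraries alone, in male libraries alone and with a minimum of 30 calls, 0 members were called higher in T cells by the quasi-binomial test, and in oxBS or female libraries alone or with 20 calls 1 was. Trav9d-1 was at 47.3% ± 13.7 in B cells and 92.9% ± 5.11 in T cells (n = 8 each), with no overlap between libraries and a difference of -46.2 points (adjusted p = 4.86e-05). Trav9-1 was at 46.1% ± 13.9 (n = 8) and 74.8% ± 14.8 (n = 6), where the groups overlapped, with a difference of pooled levels of -34.8 points (adjusted p = 0.0117). The sequences of both are close to each other: 85.6% of the 31-base words of Trav9d-1 occur in Trav9-1. Both had few calls per CpG for their library, at 0.409 and 0.388 of the genome mean in B cells. The part that reads of one copy placed on the other had in these levels was not tested.

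Families of the alpha locus moved in different ways. The family number is the one in the symbol, and the families were picked after their values were seen and carry no test. All 4 measured Trav14 members were called, with B cells at 83.7% to 95.2% and T cells at 34.6% to 54.1%. All 3 Trav16 members were called, with B cells at 72.6% to 79.5% and T cells at 0.617% to 35.4%. The 8 measured Trav13 members had a median of 24.9% among B cells and 0.764% among T cells, and 5 were called. The lowest was Trav13d-4, at 6.06% ± 3.66 in B cells and 0.176% ± 0.498 in T cells (n = 8 each). By contrast, the 4 Trav8 members were at 89.6% to 94.5% in B cells and 81.4% to 86.1% in T cells with none called, and 1 of the 8 measured Trav7 members, of 13 in all, was called. Of the 6 measured Trav9 members, Trav9d-1 and Trav9-1 were called higher in T cells, and Trav9-2 (32.1 points) and Trav9-4 (22.3 points) were called higher in B cells. The smallest difference of the measured members of the alpha and delta locus was at Trav5-1, -0.0844 points, with 94.0% ± 3.77 in B cells and 94.5% ± 3.37 in T cells (n = 8 each).

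**Figure D2:**
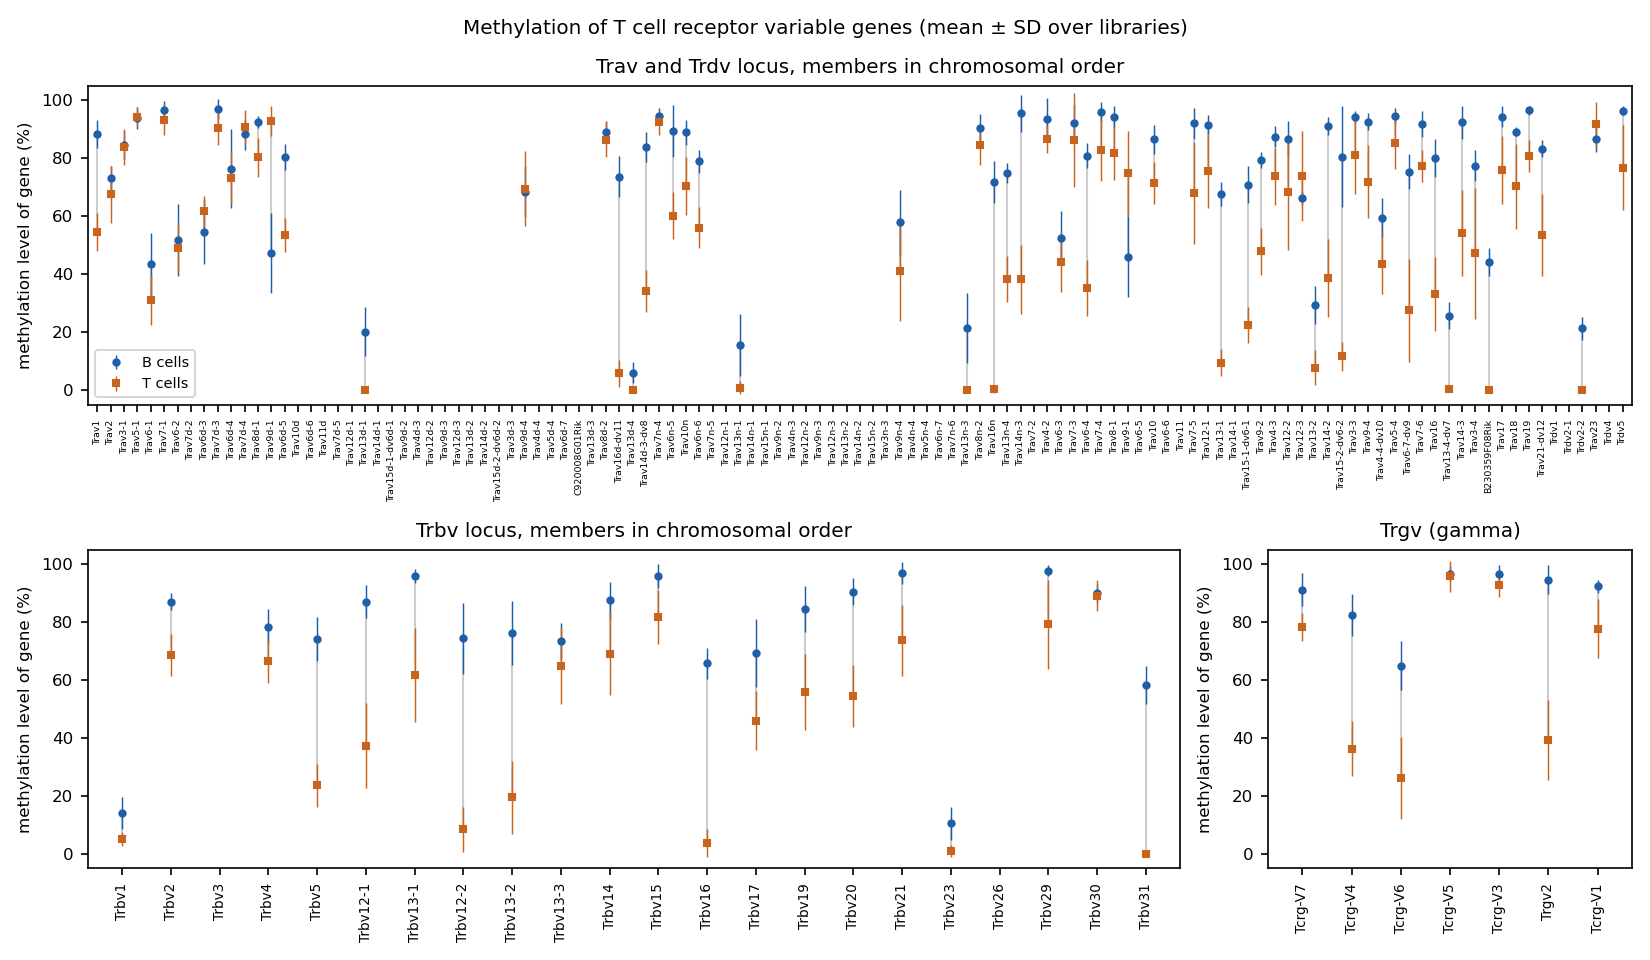
Methylation level over the gene (vertical axis, %) of the measured members of each locus in chromosomal order. Blue circles are means over B cell libraries and orange squares over T cell libraries, bars are SD, grey lines join both, and members without points were not measured. Of the 95 measured members 87 lie lower in T cells, and Trav9d-1 and Trav9-1 are the 2 called higher.

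Upstream of the start, 12 of the 42 measured members were called and all 12 were higher in B cells. Of 43121 upstream windows over all genes 2.68% were called, 1.68% with B cells higher and 0.995% with T cells higher. The median level was 55.1% in B cells and 29.7% in T cells, with a median difference of 12.3 points against 0.279 points over all genes. Of the measured members, B cells had the higher level at 37 and T cells at 5. The libraries did not overlap at 11 members, all higher in B cells, where 1.93% of all genes had such separation and another 1.19% had it with T cells higher. An adjusted p under 0.05 with no limit on the difference was found at 17 members and at 6.07% of all genes. With 4 libraries of each cell type, oxBS alone called 4 of 39 members and BS alone called 0 of 43, with the quasi-binomial test at an unadjusted p under 0.05 for 14. Over all genes, oxBS alone called 396 upstream windows and BS alone 279, where all libraries together called 1155.

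Trav1, the V segment farthest from the J segments, had the largest upstream difference of the measured members. Its 3 upstream CpGs were at 82.4%, 91.4% and 100% in B cells and 0%, 13.9% and 33.3% in T cells as lowest, median and highest of 8 libraries. The difference was 78.3 points (adjusted p = 3.52e-06), larger than the 34.4 points over the Trav1 gene (adjusted p = 9.68e-06). Tcrg-V1 was at 79.0% ± 6.72 in B cells and 15.1% ± 7.05 in T cells (n = 8 each), 64.7 points apart (adjusted p = 3.30e-06), although over the gene it was not called. Trbv23 was at 66.9% ± 7.01 (n = 8) and 24.7% ± 17.7 (n = 7) upstream, 41.4 points apart (adjusted p = 0.00233), although its gene was low in both cell types. Trav14d-3-dv8 was at 71.4% ± 7.12 and 31.9% ± 11.7 (n = 8 each), 40.5 points apart (adjusted p = 0.000263). Trav21-dv12 was at 87.5% ± 4.14 and 46.7% ± 17.9 (n = 8 each), also 40.5 points apart (adjusted p = 0.000605). Trav14n-3 was at 42.5% ± 14 in B cells (n = 6) and had 0 of 96 methylated calls in T cells, which allows up to 3.13%.

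Trbv3, whose gene has 1 CpG, was at 74.8% ± 11.7 upstream in B cells and 39.7% ± 13.6 in T cells (n = 8 each), where the libraries overlapped (adjusted p = 0.00343). Trbv12-1 was at 29.5% ± 11.9 in B cells and had 0 of 193 methylated calls in T cells, which allows up to 1.55% (adjusted p = 3.70e-05). Tcrg-V4, at 54.7% ± 9.58 and 28.6% ± 9.18 (n = 8 each), was called both upstream (27.1 points, adjusted p = 0.00116) and over the gene. Among measured upstream windows, the lowest levels were at Trbv12-2 (5.31% ± 2.77 in B cells and no methylated call in T cells, which allows up to 1.2%), Trav8d-2 (5.58% ± 5.50 and 2.33% ± 2.58) and Trbv31 (10.4% ± 6.30 and 0 of 120 calls, n = 8 in each group). Trbv31 upstream was thus low in both cell types, 11 points apart (adjusted p = 0.0187), beside the 57.3 points over its gene. With 1000 bp upstream in place of 500 bp, the difference was over 20 points and was called. Trav6d-4 (94.2% against 93.9%), Trbv1 (24.1% against 19.4%) and Tcrg-V7 (55.1% against 53.1%) had the smallest differences of the measured upstream windows of their loci. Of the 39 members measured in both windows, 7 were called in both, 10 over the gene alone, 4 upstream alone and 18 in neither.

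The level fell sharply just upstream of the start in both cell types. Over the 95 measured members, the level in B cells was 83.9% ± 1.93 in the bin that begins 750 bp upstream and 41.7% ± 1.88 in the last 250 bp, and in T cells 65.9% ± 3.40 and 18.4% ± 3.24 (SD over 8 libraries each). The difference between the cell types was 23.3 points in those last 250 bp and 24.1 points in the 250 bp after the gene end, which hold the recombination signal. The difference was largest, 25.4 points, in the bin from 500 bp after the start. It was smaller in the outermost bins, 6.48 points in the bin farthest upstream, 2000 bp before the start, and 5.24 points in the bin from 1750 bp after the end. The fall was not even, with 14.8 points in the bin that begins 1500 bp upstream and 14.2 in that from 1250 bp after the end.

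**Figure D3:**
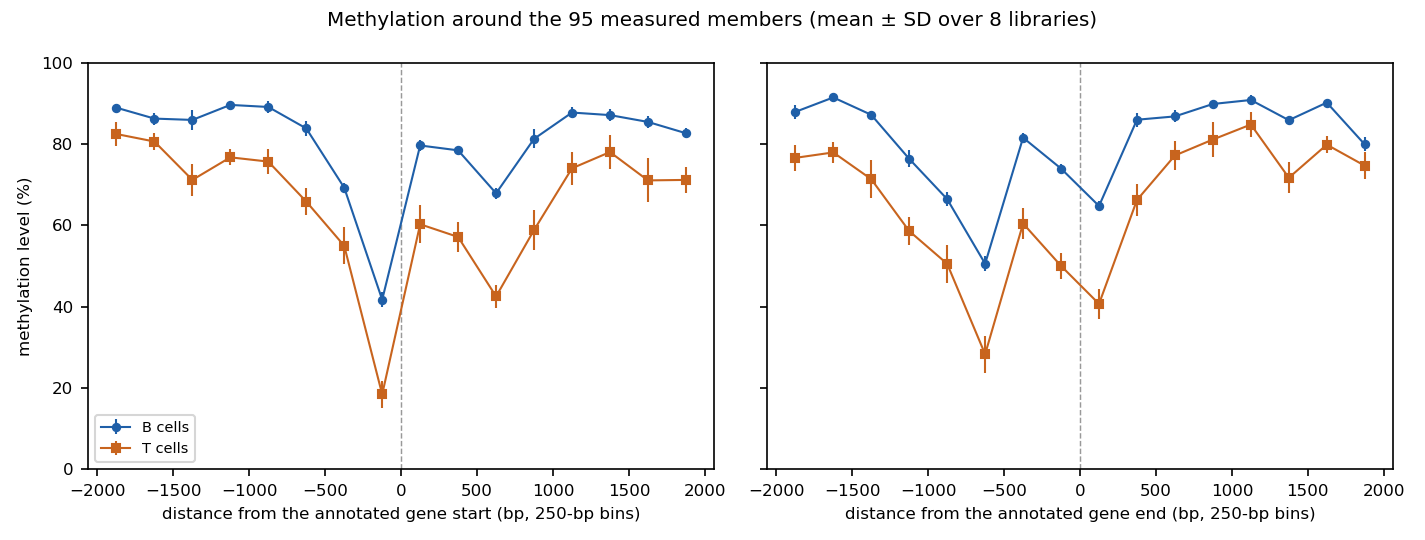
Methylation level (vertical axis, %) in 250-bp bins around the annotated start (left) and end (right) of the 95 members measured over the gene, with calls of all members added together. Points are means over 8 libraries of B cells (blue circles) or T cells (orange squares) and bars are SD. Both lines dip just before the start, to 41.7% and 18.4%, and the T cell line lies below the B cell line in all bins.

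The 39 bases that follow each gene were read as the recombination signal, a heptamer, 23 bases and a nonamer. The letters CAC, with which a heptamer begins, followed the annotated end directly in 141 of 144 members (97.9%) and in 2.18% of all genes. The full heptamer CACAGTG, on the strand of the gene, did so in 104 members (72.2%) and in 0.63% of all genes. All genes include the members, so that 104 of the 349 genes with the full heptamer were members. How the annotated ends were placed was not examined, and these shares are no test of enrichment. The signals of the first and last member of each locus, and of Trdv4 and Trbv30 next to the inverted last members, are given from GRCm38 with the first 7 and last 9 bases in capitals.
Trav1, chr14:52428877-52428915, plus strand: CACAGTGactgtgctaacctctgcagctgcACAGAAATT
Trdv4, chr14:54075516-54075554, plus strand: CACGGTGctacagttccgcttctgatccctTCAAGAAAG
Trdv5, chr14:54148623-54148661, minus strand: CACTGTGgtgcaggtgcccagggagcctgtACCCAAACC
Trbv1, chr6:40891886-40891924, plus strand: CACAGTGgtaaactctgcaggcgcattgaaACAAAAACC
Trbv30, chr6:41281991-41282029, plus strand: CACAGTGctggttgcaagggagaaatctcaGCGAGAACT
Trbv31, chr6:41557652-41557690, minus strand: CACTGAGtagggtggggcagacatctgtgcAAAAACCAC
Tcrg-V7, chr13:19178493-19178531, plus strand: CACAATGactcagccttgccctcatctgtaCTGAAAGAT
Tcrg-V1, chr13:19340455-19340493, plus strand: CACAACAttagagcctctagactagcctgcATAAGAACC
Trav1, Trbv1 and Trbv30 carried the full heptamer, and the bases given for the other 5 began with CAC and differed after it. The Trbv31 gene ends in the bases ca, which with the CACTG that follows spell CACACTG. Read from there, 23 bases and then GCAAAAACC follow. The capitals of the Trbv31 line are counted from the annotated end and so miss this frame. The letters TGANNTCA, which are their own reverse complement and are known from a decamer of V beta promoters, lay within 500 bases before the start of 59 members (41.0%), 12 of them in the beta locus, and of 21.4% of all genes. A match is a description of the letters and not of binding.

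The number of calls gave a second readout, since a segment that is cut out gives no reads. Call numbers over each gene were compared by edgeR's quasi-likelihood test, and a gene was called where the adjusted p was under 0.05 and the log2 difference 0.5 or more in size. Of 102 members tested, 44 were called and all 44 had fewer calls in T cells. Of all 47777 genes tested 0.417% were called, 0.228% with more calls in B cells and 0.188% with more in T cells. Of the 199 genes called in all, 44 were thus members and 66 were T cell receptor genes of any type. The median log2 difference (B minus T) was 0.66 over members and -0.003 over all genes. BS libraries alone called 25 and oxBS libraries alone 28 of 101 members. With the number of CpGs that had a call in place of the number of calls, edgeR called 0 members, with 1 at an unadjusted p under 0.05. That number cannot exceed the CpGs of the gene, a median of 6 over the members (1 to 19). It can therefore stay the same while the number of calls falls. Over the whole genome at least 92.4% of CpGs had a call in each library. The share at the members was not read, and why no member was called in this way was not tested. Fewer DNA copies in T cells and less complete recovery of the same copies cannot be told apart from call numbers alone.

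In the alpha and delta locus, and in the beta locus up to Trbv29, the depth of T cells relative to B cells tended to fall along the chromosome. Relative depth is given as calls per CpG over the mean of the library. At Trdv4, 47.6 kb from the nearest J segment, it was 1.06, 1.47 and 2.27 in B cells and 0, 0.164 and 0.299 in T cells as lowest, median and highest of 8 libraries. The groups did not overlap, and the T cell depth was 9.54% of that in B cells (log2 difference 3.39, edgeR adjusted p = 1.04e-06). It was 13.2% at Trdv2-1 (log2 2.92, edgeR adjusted p = 4.09e-06), 16.0% at Trav23 (2.64, edgeR adjusted p = 2.73e-05), 19.8% at Trdv2-2 (2.34, edgeR adjusted p = 1.63e-07) and, of the gamma genes, 23.5% at Tcrg-V6 (2.09). Trdv1 had 26.0% and Trdv5 27.9% of the B cell depth. At the far end of the locus Trav1 had 84.5% (log2 0.24, adjusted p = 0.47), with overlapping libraries, B cells at 0.820 to 1.51 and T cells at 0.5 to 1.14.

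Over the alpha and delta locus, the median log2 difference rose from 0.11 in the first 29 members, Trav1 to Trav13d-2, to 0.29, 0.68 and 1.48 in the following groups of 29, 29 and 28. None of the 16 members tested in the first group was called and 26 of 28 were called in the last, from Trav9-2 to Trdv5. Spearman's correlation coefficient of the log2 difference with chromosomal order was 0.93 over 74 members, which share libraries and neighbouring DNA. In the beta locus it was 0.75 over 21 members, and in the gamma locus -0.04 over 7 members. Trbv1 was at -0.30 and Trbv30 at 1.76 (29.6% of the B cell depth, edgeR adjusted p = 3.10e-06), whereas the inverted Trbv31, 13.8 kb from the nearest J segment, was at 0.07 (95%, adjusted p = 0.877). The depth of Trbv31 was 1.45 ± 0.330 in B cells and 1.39 ± 0.307 in T cells (n = 8 each). In the gamma locus, Tcrg-V5 (1.95) and Tcrg-V6 were called, and the others lay between 0.03 at Tcrg-V7 and 0.61 at Tcrg-V4. Without B cell library 11 the difference at Tcrg-V4 was 0.70 and was called (edgeR adjusted p = 0.0442). Tcrg-V1, the gamma member nearest to a J segment, was at 0.24.

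**Figure D4:**
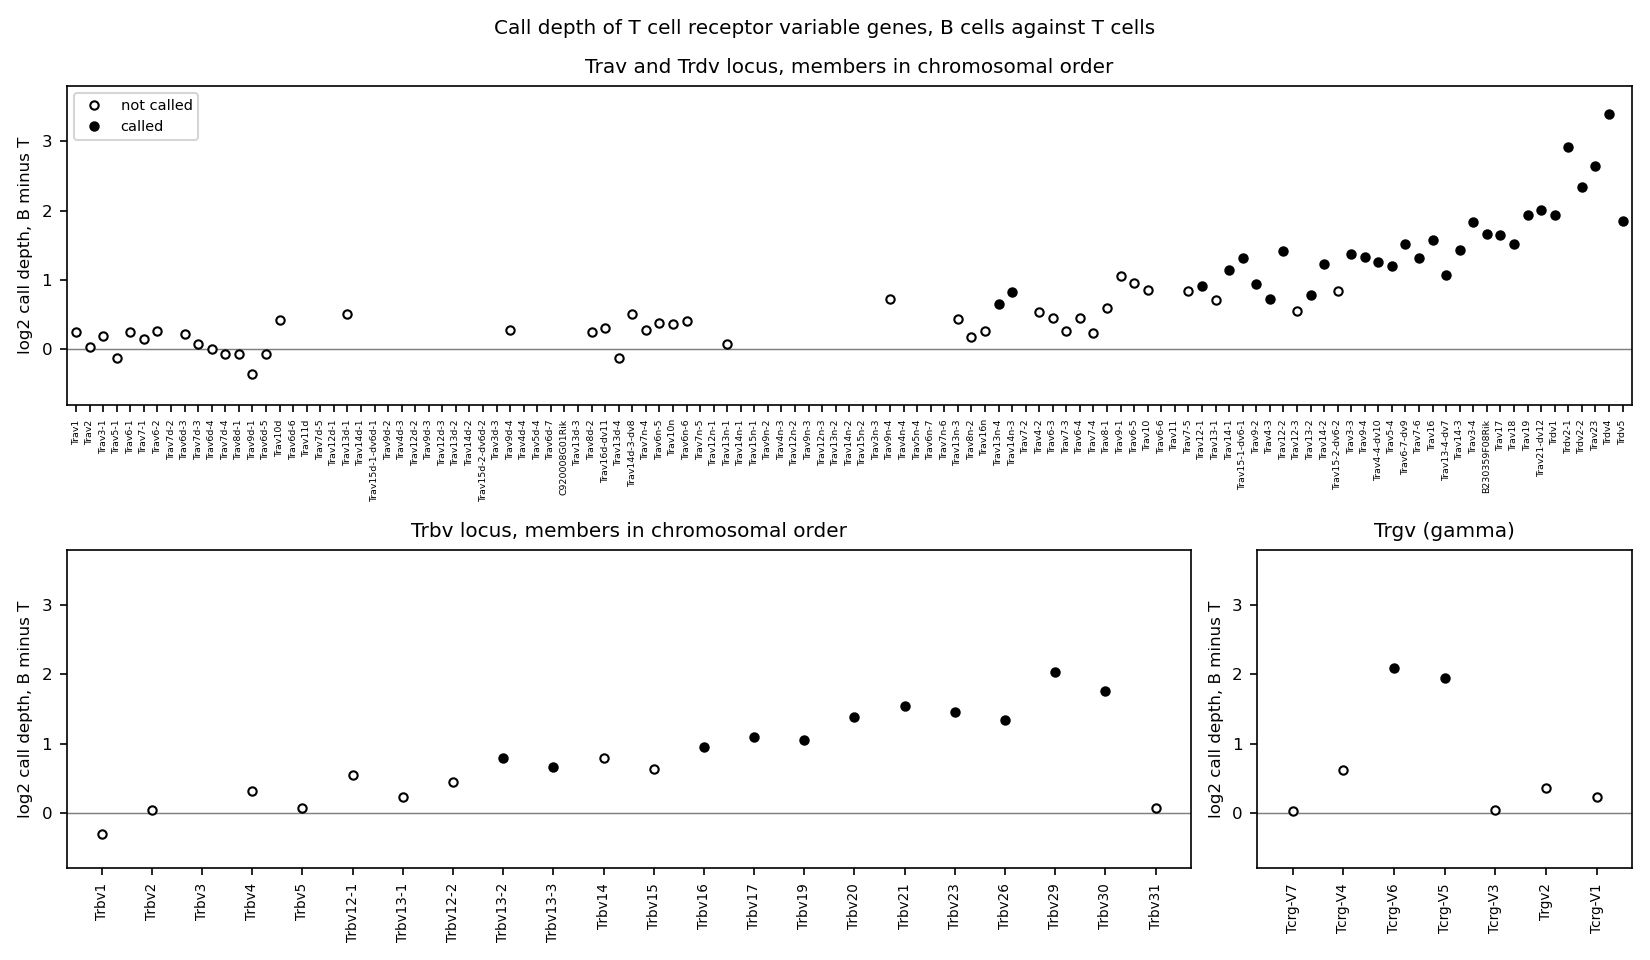
Log2 difference in the number of calls over the gene, B cells minus T cells (vertical axis), for the members of each locus in chromosomal order. Filled circles were called and open circles were not, and members without a circle had too few calls for the test. The values climb along the alpha and delta locus to 3.39 at Trdv4, and in the beta locus they climb to Trbv29 and are at 0.07 at Trbv31.

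In the alpha and delta locus and in the beta locus, the coefficient with order was lower for methylation than for depth. Spearman's coefficient of the difference over the gene with order was 0.38 over 68 members of the alpha and delta locus, -0.04 over 20 members of the beta locus and 0.07 over 7 gamma members. The median difference in the same 4 groups of the alpha and delta locus was 4.60, 16.3, 17.6 and 20.5 points. The beta locus had 26.6 points in its first 11 members and 22.8 in its last 11. By locus, the median difference was 17.5 points for Trav and Trdv, 22.8 for Trbv and 15.8 for Trgv, with 29 of 68, 11 of 20 and 3 of 7 members called. Among 41 members whose depth differed by less than 0.5 on the log2 scale, 13 were called for methylation, with differences of up to 72.4 points. Among 23 members with a log2 depth difference from 0.5 to under 1, 13 were called, and among 31 with 1 or more, 17. Methylation calls were made at 56.4% of the 39 members called for depth and at 37.5% of the 56 that were not. Spearman's coefficient between both differences was 0.45 over 68 members of the alpha and delta locus, -0.19 over 20 of the beta locus and 0.30 over all 95, which share libraries. Trav16n, Trbv31 and the upstream window of Trav1 differed in level at members whose depth was not called.

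Summed over the members, the level in T cells differed between the assays. With calls of the 95 measured members added, T cells were at 57.0% ± 0.774 in BS and 51.1% ± 0.548 in oxBS libraries, and B cells at 76.2% ± 1.08 and 76.8% ± 0.309 (SD, n = 4 each). Over the gamma genes, T cells were at 64.1% ± 6.19 in BS and 65.1% ± 7.19 in oxBS libraries (n = 4 each), a gap smaller than the spread between libraries. Over the whole genome T cells were at 79.6% ± 0.050 in BS and 78.7% ± 0.171 in oxBS libraries. The T cell level of BS was above that of oxBS at 69 of 95 members (72.6%), where 67.8% of all genes had that sign. The median BS minus oxBS difference in T cells was 4.1 points over members and 0.80 points over all genes. Upstream it was 5.74 points over 42 members and 0.448 points over all genes, with BS higher at 78.6% and 62.8%. In B cells the medians over the gene were -0.355 points for members and -0.264 points for all genes. The interaction of cell type with assay passed at 0 of 95 members in the quasi-binomial model, with 16 at an unadjusted p under 0.05, while 771 of 46935 genes passed. That with sex passed at 0 of 95, with 5 at an unadjusted p under 0.05. Male and female libraries had T cell means of 54.1% ± 3.53 and 53.9% ± 3.44 (n = 4 each).

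Other segments of the receptor loci and the related immunoglobulin V segments were read in the same way. The J segments, to which V segments are joined, were called higher in B cells at all 7 genes measured and upstream of 51 of 54, windows that can share CpGs with a neighbour. Of 8 constant genes 5 were called over the gene, all higher in B cells, among them Trac (79.7% against 11.1%), Trbc1 (94.9% against 0%) and Trbc2 (94.9% against 5.39%). Of 10 measured V pseudogenes, 4 were called, 3 with B cells higher and 1 with T cells higher. Of 131 measured immunoglobulin V genes, 22 were called (5 with the higher level in B cells, 17 with the higher level in T cells), with a median difference of -1.88 points, and their call depth was called at 44 of 153, all with fewer calls in B cells and all in the heavy chain locus (44 of 85 Igh, 0 of 65 Igk and 0 of 3 Igl genes by edgeR). The methylation calls lay at 7 Igh genes (5 with B cells higher), 14 Igk genes and 1 Igl gene (all with T cells higher). Of 17 recombination and receptor assembly genes, only the CD3 chain genes Cd3d, Cd3e, Cd3g and Cd247 were called over the gene, all higher in B cells. Upstream, 4 of 16 were called, all higher in B cells: Cd3e, Cd3g, Cd247 and Ptcra, the pre-receptor alpha chain (34.4 points). Over the gene Rag1 and Rag2, the recombinase genes, differed by -3.81 and -4.71 points.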

How the data were processed

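DNA methylation was measured by whole-genome bisulphite sequencing in 16 libraries. The authors deposited, for each library, counts of unmethylated and methylated calls at each CpG, from reads trimmed with Trim Galore 0.6.0, aligned to mm10 with Bismark 0.20.0 and handled with SAMtools 1.3.1 (versions per the submitters' processing notes), with a mapping quality of at least 10. That filter removes reads that fall equally on near-identical copies. The members and gene lists were chosen with earlier results of these data known.

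From the counts, calls at CpGs of GRCm38 were summed over each of 55413 genes and over the 500 bp upstream. Levels were compared by a quasi-binomial logistic model (dispersion held at 1 or more, F test, sex and assay as covariates) and call numbers by edgeR 4.0.16 (library size from all calls over genes, mean of at least 10 calls), adjusted over all genes tested, with Python 3.11.15, NumPy 2.4.6, SciPy 1.17.1, R 4.3.3, limma 3.58.1 and DESeq2 1.42.0. Both tests were checked on simulated data. In the gene window, 95 of 100 genes made to differ by 30 points were recovered, and in the upstream window 77 of 100. The changed genes were drawn from all genes measured and set around the middle of the scale, so recovery at V segments was not read. Named members were, by rule, the 8 called with the largest difference and the 3 measured with the lowest level per window, the first and last of each locus, all delta and gamma members, the 5 with the largest called depth difference, Trbv31, and the smallest difference of a measured member per window and locus. Families, Trav9d-1 and Trav9-1, and the members whose sequences are printed were chosen after values were seen. Alternatives were other limits, coverage minimums, windows, tests, scalings, subsets by assay or sex, and each library left out. Markers are given as counts per list, and the values of one marker gene are not reported here.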

Additional observations from a re-analysis of the deposited data

Results flagged for a closer look

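In 16 of 154 groups of libraries of the named members, 1 library stood apart from the others of its cell type by Dixon's test. Chance flags about 1 in 20 groups of continuous values, a rate that does not hold for groups in which most libraries are at 0%. Libraries are named by their number. For methylation over the gene, the T cell library that stood apart was at 1.41% in Trav13d-4 (library 7), 6.25% in Trav13n-1 (library 5), 3.70% in Trav16n (library 8) and 4.76% in Trbv23 (library 7), with the other libraries of at least 10 calls at 0%, so that 1 methylated call was enough to set the library apart. In Trgv2, T cell library 7 was at 69.6%, where the next was at 45.0%. B cell library 10 was at 72.9% in Trav14d-3-dv8 and at 12.5% in Trdv2-2, and B cell library 12 was at 80.6% in Trav14n-3, each the lowest of its group. Upstream of Tcrg-V4, B cell library 9 was at 34.2%, below the next at 51.4%.

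For relative depth over the gene, T cell library 6 was at 1.79 in Trav5-1 and 1.42 in Trbv16, and T cell library 5 at 2.35 in Trbv1. T cell library 13 was at 0.773 in Trav6d-4, T cell library 15 at 0.867 in Trav15-2-dv6-2 and T cell library 16 at 0.0194 in Tcrg-V5. B cell library 2 was at 1.65 in Trgv2.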

How the results depend on the processing

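Among the named members no called value changed direction, but calls were lost and gained. The other called members were not read for direction one by one. Differences near 0 that were not called changed sign under some settings, among them Trav5-1, Trbv30 and Tcrg-V5 over the gene and Trav6d-4 upstream. Of the 43 members called over the gene, the number became 68 with no limit on the difference, 66 with a limit of 10 points, 22 of 60 and 16 of 37 with a minimum of 20 and 30 calls, 16 of 89 in BS libraries, and 13 and 22 in male and female libraries alone. Of the 12 called upstream, it became 7 with a limit of 30 points, 6 of 21 and 2 of 11 with a minimum of 20 and 30 calls, 0 of 43 in BS libraries, 4 in oxBS libraries, 1 in male and 1 in female libraries, 6 of 19 in a window of 250 bp, 19 of 81 in 1000 bp and 19 of 45 in 500 bp centred on the start. Of the 44 called for depth, it became 29 of 58 with a mean of at least 30 calls over the libraries, 25 in BS and 28 in oxBS libraries. It became 0 with CpGs that had a call in place of calls, a number capped by the CpGs of the gene. Over all genes, 632 were called over the gene, and 326 in BS, 731 in oxBS, 315 in male and 399 in female libraries alone. With no limit on the difference, 7510 of 46935 genes (16%) were called, and with a limit of 10 points 1698. Minimums of 20 and 30 calls gave 539 and 479 of all genes. Upstream, 1155 of all genes were called, and 279, 396, 260 and 284 in the same subsets. A limit of 30 points gave 667, and minimums of 20 and 30 calls 933 and 731. Windows of 250 bp, 1000 bp and 500 bp centred on the start gave 858, 1164 and 1158. For depth, all-gene counts under these settings were not read. Higher minimums left fewer members to test. The cause of the other changes was not tested. Of the named members, 5 lost their call over the gene in BS, 8 in male and 5 in female libraries. Upstream, 9 lost it in BS libraries, which were all the named members called there in the main comparison. Of these 9, 6 lost it in oxBS, 8 in male and 7 in female libraries. With CpGs in place of calls, 13 lost the call for depth, again all that had one. With each library left out in turn, the counts were 40 to 44, 11 to 13 and 40 to 46, and the depth of Trav13-1 was called without B cell library 4 (log2 0.78) or 10 (0.82).

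The median difference of the Trav and Trdv locus was 13.7 points over the gene and 3.48 upstream with 20 calls, and its log2 depth difference 0.86 with calls summed. Trbv had 33.8 points over the gene with levels pooled and a log2 depth difference of 0.63 with calls summed. Trgv had 22.2 points over the gene and 28.4 upstream with levels pooled, 27.1 upstream with 20 calls, and a log2 depth difference of 0.67 with calls summed. Without members that share 80% or more of their 31-base words with another V segment, chosen after seeing the data, the counts were 41, 12 and 44. DESeq2 gave no adjusted p for the members, so it gave no count; without its independent filtering, also chosen after seeing the data, it called 45. No paired analysis was possible because each library has a number of its own. Upstream, 102 of 144 members were not measured, of which 43 had under 2 CpGs and 37 had no call in any library.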
